A study of Mus musculus with 12 samples.

Results

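Marc2, Tuft1, Shisa3, Tmem202, Trappc12, Col17a1, Sh2d7, Bcas1 and Arhgef39 are 9 of the 20788 genes in an RNA sequencing table of mouse testes. They were selected on measured values, as genes with lower counts in the overexpression virus group, or in both virus-modified groups, than in the controls. Those 2 contrasts are therefore described for them and not tested. All 9 genes passed the filter on low counts, which kept 16395 genes.

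The libraries were made from total RNA of whole testes of F1 mice, with the strain given as IRC mouse. The study compared testes that had received virus to overexpress lncRNA8276, a long non-coding RNA known by that label, with testes that had received virus to inhibit it. The 4 groups of 3 libraries are called overexpression, knockdown, control_5NC and control_3NC here, after the labels 8276OV, 8276KD, 5NC and 3NC. The groups 5NC and 3NC were taken as controls, 5NC for overexpression and 3NC for knockdown, following their order in the design text. The labels give neither the age of the mice nor the kind of virus, its promoter, the cells it reached or what the 5NC and 3NC testes received. Nor do they say whether the libraries of a group came from separate mice, so the spread behind each p-value may be technical. The library titles carry F1 and do not state whether virus was given to these mice or to their parents. Whether lncRNA8276 itself changed was not analysed here.

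The 9 genes belong to no common pathway. In the seminiferous tubule, spermatogonia enter meiosis, pass through the long pachytene stage as spermatocytes, divide into round spermatids and reshape into elongating spermatids, and many genes known from other tissues are also transcribed in these germ cells. Marc2 encodes a molybdenum cofactor enzyme of the mitochondrial outer membrane that reduces N-hydroxylated compounds with electrons from cytochrome b5. Trappc12 is a subunit of a TRAPP complex, which tethers transport vesicles. Shisa3 retains frizzled and FGF receptors in the endoplasmic reticulum, and Col17a1 is the transmembrane collagen of hemidesmosomes, which anchor epithelial cells. Sh2d7 encodes a protein with an SH2 domain, the module that binds phosphorylated tyrosine, and is known as a marker of tuft cells. Arhgef39 encodes a guanine nucleotide exchange factor. Tuft1 encodes tuftelin, first described in tooth enamel, and Bcas1 marks oligodendrocytes that begin to myelinate. Tmem202 encodes a transmembrane protein.

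All 9 are protein-coding genes, placed here on GRCm38 with GENCODE M21. Marc2 lies at chr1:184813068-184846451 on the minus strand, Bcas1 at chr2:170346991-170427845 (minus), Tuft1 at chr3:94612757-94658872 (minus) and Arhgef39 at chr4:43496142-43499695 (minus). Shisa3 lies at chr5:67607882-67623552 on the plus strand, Sh2d7 at chr9:54538984-54545020 (plus) and Tmem202 at chr9:59518685-59539847 (minus). Trappc12 lies at chr12:28690628-28750472 and Col17a1 at chr19:47646344-47692094, both on the minus strand. Exons of Shisa3, Tmem202, Sh2d7 and Bcas1 overlap exons of a gene on the other strand, which are Atp8a1, Hexa, Cib2 and the antisense genes Bcas1os1 and Bcas1os2. No source used here gives the strand setting of the counting, and reads in those overlaps cannot be assigned to either gene. In overexpression against control_5NC, Hexa was at a log2 fold change of -0.003 ± 0.066 (SE), Atp8a1 at 0.309 ± 0.27 and Cib2 at 0.40 ± 0.24, and none of these 3 passed the test.

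Promoter sequences from RefSeq (GRCm38.p6) were matched for 6 of the 9 genes, with 7 windows of 250 bases before a transcription start. Tuft1, Tmem202 and Bcas1 had no entry. The 4 windows printed here are those of Marc2 and Sh2d7, at the upper end of the 9 genes in how far control_5NC lay above the other groups, of Trappc12, at the lower end, and of Col17a1, the gene whose control groups overlapped. Bases that the annotation places in exons are left out. Each runs 5′ to 3′ toward the gene. Capitals mark matches, on either strand, to the cAMP response element TGACGTCA and its part TGACG, which overlaps it, to the E-box CACGTG, the GC box GGGCGG, the CCAAT box and the TATAAA box. The Marc2 window (chr1:184846452-184846701, minus strand) held none of these, and that of Sh2d7 (chr9:54533873-54534122, plus strand) held TATAAA 27 bases before the RefSeq start, which lies 4861 bases before the GENCODE gene. The stretch of Trappc12 (chr12:28750473-28750650, minus strand) held GGGCGG in reverse, 143 bases before its start. That of Col17a1 (chr19:47692095-47692292, minus strand) held TATAAA 140 and 91 bases before its start.
Marc2: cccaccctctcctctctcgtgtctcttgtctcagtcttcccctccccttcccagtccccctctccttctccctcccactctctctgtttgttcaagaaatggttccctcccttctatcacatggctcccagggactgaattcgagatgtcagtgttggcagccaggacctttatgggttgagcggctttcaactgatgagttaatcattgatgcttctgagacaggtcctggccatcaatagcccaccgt
Sh2d7: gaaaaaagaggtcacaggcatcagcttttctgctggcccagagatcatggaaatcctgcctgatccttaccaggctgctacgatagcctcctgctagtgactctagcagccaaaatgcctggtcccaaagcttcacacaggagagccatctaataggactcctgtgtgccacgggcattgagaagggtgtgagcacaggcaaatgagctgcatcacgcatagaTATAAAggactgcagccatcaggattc
Trappc12: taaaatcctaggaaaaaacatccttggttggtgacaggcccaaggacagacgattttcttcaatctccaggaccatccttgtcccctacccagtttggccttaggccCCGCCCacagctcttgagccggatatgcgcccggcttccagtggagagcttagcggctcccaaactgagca
Col17a1: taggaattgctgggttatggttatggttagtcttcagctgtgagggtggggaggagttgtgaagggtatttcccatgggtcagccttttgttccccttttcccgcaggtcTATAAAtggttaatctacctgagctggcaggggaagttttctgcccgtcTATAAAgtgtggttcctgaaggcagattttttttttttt
Neither TGACGTCA nor TGACG was found in any of the 7 windows, against 1.55% and 17.8% of all 32851 RefSeq windows. GGGCGG was in 3 of the 7 windows (Shisa3, Trappc12 and Arhgef39) and in 32.7% of all. TATAAA was in 2 of 7 (Sh2d7 and Col17a1) and in 12.4% of all, CACGTG in 1 (Arhgef39) and 6.02%, and CCAAT in 1 (Col17a1) and 33.8%. The Arhgef39 window belongs to a RefSeq start 9052 bases before the GENCODE gene. AACNG, not capitalised above, was in 3 of 7 (Marc2, Trappc12 and Arhgef39) and in 74.2% of all. No motif was in all 7 windows. A match is a run of letters and not a shown binding site.

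The libraries held 13485479 to 15771655 counts, and the 9 genes had 42 to 1126 counts per library. Every count of the 9 genes was a whole number, whereas 88.2% of all values in the table were. Germ cell, Sertoli and Leydig markers were detected in every group, as the tissue label requires. The control_3NC 2 library stood apart, with a median correlation to the others of 0.948 against 0.974 to 0.984, and with summed leukocyte markers (13 genes, none at 0 in all libraries of a group) at 525 CPM against 93.7 to 130.04 CPM in the other 11 libraries. In contrasts that use a control group, the counts of the 9 genes that pass are given with and without it. These are bulk samples, in which fewer cells of a type and less RNA per cell cannot be told apart.

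For 8 of the 9 genes the group that stood apart was control_5NC: its 3 libraries were above all 9 other libraries, and the means of control_3NC, knockdown and overexpression spanned less than the distance from their average up to control_5NC. For Col17a1 the control groups overlapped, and both were above both modified groups. The same separation of control_5NC upward was seen in 501 genes, 3.06% of those tested. Both modified groups lay below both control groups without overlap for 5 of the 9 (Marc2, Tuft1, Tmem202, Trappc12 and Col17a1). Among all genes tested this held for 80, or 0.488%. That contrast was used in the choice, so the 5 are a description. Levels are given in CPM, counts scaled to a common library size with TMM factors, which compare libraries for 1 gene. Changes are log2 fold changes ± SE from edgeR's quasi-likelihood fit over all 12 libraries, with adjusted p by the Benjamini-Hochberg method over 16395 genes and 0.05 as the threshold.

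**Figure D1:**
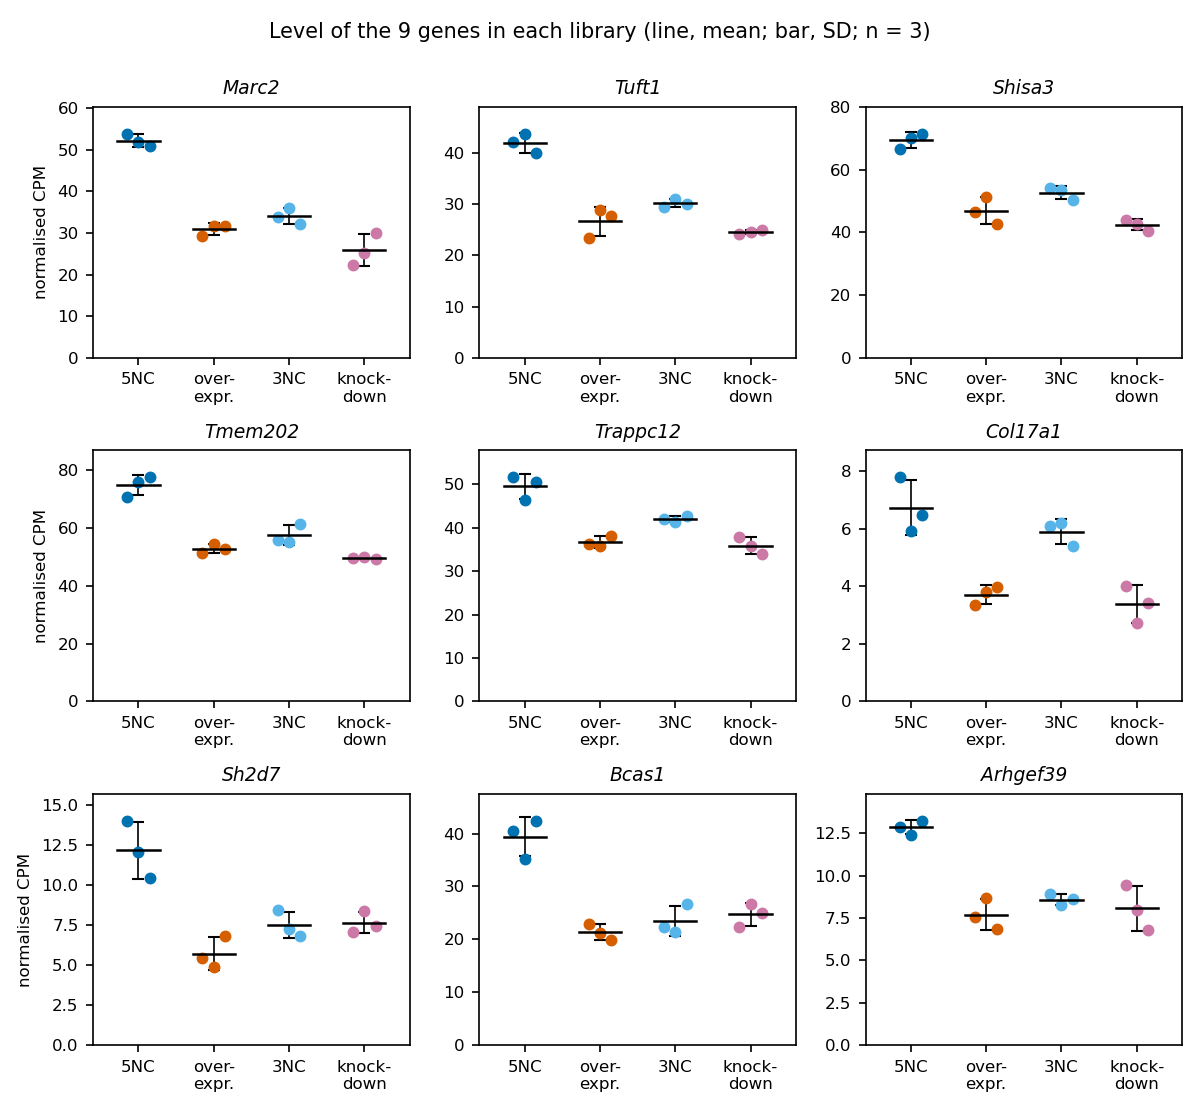
Level of each of the 9 genes in the 12 libraries, in normalised CPM on a linear axis, with 3 points per group, a line at the group mean and a bar for the SD. Marc2 sat between 50.9 and 53.9 CPM in control_5NC and between 22.3 and 36.0 CPM in the other 9 libraries, and Col17a1 was the gene in which control_3NC reached into the range of control_5NC.

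The gene of mitochondrial reduction, Marc2, had 53.9, 51.8 and 50.9 CPM in the control_5NC libraries and 29.4, 31.7 and 31.8 CPM with overexpression. It had 33.8, 36.0 and 32.3 CPM in control_3NC and 22.3, 25.3 and 30.0 CPM with knockdown. No library of the other groups reached the control_5NC range, and each modified group lay below control_3NC without overlap. Marc2 was 1.69-fold lower with overexpression than in control_5NC (-0.75 ± 0.11) and its estimate for knockdown against control_3NC was -0.40 ± 0.11 (edgeR adjusted p = 0.56). The controls themselves differed by 0.62 ± 0.11, with control_5NC higher.

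For the trafficking subunit Trappc12, control_5NC had 51.6, 46.3 and 50.6 CPM and overexpression 36.3, 35.7 and 38.1 CPM. In control_3NC it had 41.9, 41.3 and 42.8 CPM, and with knockdown 37.7, 35.9 and 34.0 CPM. For Trappc12 both modified groups lay below both control groups without overlap. Its difference was -0.43 ± 0.081 for overexpression against control_5NC, the smallest of the 9 in that contrast, and -0.23 ± 0.081 for knockdown against control_3NC.

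Shisa3, which holds receptors back in the endoplasmic reticulum, had 66.6, 70.2 and 71.6 CPM in control_5NC and 46.6, 51.5 and 42.8 CPM with overexpression. Its libraries had 54.2, 53.6 and 50.3 CPM in control_3NC and 44.1, 42.7 and 40.6 CPM with knockdown. Knockdown lay below both controls without overlap, while overexpression 2, at 51.5 CPM, was above the lowest control_3NC library. The differences were -0.56 ± 0.087 and -0.31 ± 0.087 in the overexpression and knockdown contrasts.

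The transmembrane protein gene Tmem202 had 70.8, 75.8 and 77.5 CPM in control_5NC and 51.3, 54.3 and 52.6 CPM with overexpression. Control_3NC had 55.7, 54.97 and 61.3 CPM and knockdown 49.5, 49.8 and 49.0 CPM. The 3 knockdown libraries of Tmem202 had a coefficient of variation of 0.761%, and both modified groups lay below both controls without overlap. Tmem202 differed by -0.50 ± 0.077 with overexpression and by -0.21 ± 0.077 with knockdown, each against its control.

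Col17a1, the hemidesmosome collagen, had the lowest counts of the 9. It had 7.79, 5.93 and 6.47 CPM in control_5NC and 6.10, 6.20 and 5.41 CPM in control_3NC, so the controls overlapped. With overexpression it had 3.35, 3.82 and 3.98 CPM, and with knockdown 4.02, 2.72 and 3.43 CPM. All 6 modified libraries were below all 6 control libraries. Col17a1 was 1.81-fold lower with overexpression than in control_5NC (-0.86 ± 0.18) and its estimate for knockdown against control_3NC was -0.80 ± 0.18 (edgeR adjusted p = 0.56). It was the only gene of the 9 for which these differences were of nearly equal size, and it differed between the controls by 0.19 ± 0.18.

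The signalling gene Sh2d7 had 14.0, 12.1 and 10.4 CPM in control_5NC and 5.45, 4.85 and 6.83 CPM with overexpression. The difference of -1.09 ± 0.17, a 2.13-fold lower level, was the widest of the 9. In control_3NC Sh2d7 had 8.43, 7.26 and 6.83 CPM, and with knockdown 7.09, 8.36 and 7.45 CPM. Those 2 groups overlapped fully.

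Arhgef39, the exchange factor gene, had 12.9, 12.4 and 13.2 CPM in control_5NC and 7.56, 8.67 and 6.83 CPM with overexpression. It had 8.89, 8.27 and 8.59 CPM in control_3NC and 9.45, 7.97 and 6.80 CPM with knockdown. Overexpression, knockdown and control_3NC overlapped, and control_5NC stood above them. The difference between overexpression and control_5NC was -0.74 ± 0.14.

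Tuft1, the enamel protein gene, had 42.0, 43.8 and 39.9 CPM in control_5NC and 23.5, 28.9 and 27.6 CPM with overexpression. In control_3NC it had 29.5, 31.0 and 30.0 CPM and with knockdown 24.3, 24.5 and 24.9 CPM. Both modified groups lay below both control groups. Tuft1 differed by -0.65 ± 0.094 with overexpression and by -0.30 ± 0.094 with knockdown, each against its control.

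Bcas1, the gene of young myelinating cells, had 40.4, 35.3 and 42.4 CPM in control_5NC and 22.9, 21.3 and 19.96 CPM with overexpression. Control_3NC had 22.3, 21.4 and 26.8 CPM and knockdown 22.4, 26.8 and 25.1 CPM. Apart from control_5NC, every Bcas1 library was between 19.96 and 26.8 CPM. Its difference between overexpression and control_5NC was -0.88 ± 0.12, a 1.84-fold lower level, and the controls differed by 0.75 ± 0.12.

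Between genes, levels were compared on the other deposited signal, which has no stated unit and was taken to be scaled by length. On that scale the control_5NC means (n = 3) ran from 1.27 for Col17a1 through 4.67 for Sh2d7, 8.62 for Arhgef39, 14.8 for Bcas1, 16.4 for Trappc12, 17.6 for Tuft1, 19.5 for Shisa3 and 50.8 for Marc2 to 74.3 for Tmem202. Tmem202 and Marc2 thus had the highest signal of the 9, and Col17a1 and Sh2d7 the lowest. The order of the group means in CPM was control_5NC, control_3NC, overexpression and knockdown for Marc2, Tuft1, Shisa3, Tmem202, Trappc12 and Col17a1. Their last 2 neighbours, overexpression and knockdown, overlapped in CPM for each of these 6 except Tmem202. For Bcas1, Sh2d7 and Arhgef39 control_5NC was first and overexpression last, with control_3NC and knockdown, which overlapped, between them.

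Overexpression against control_5NC asks what the virus to overexpress lncRNA8276 changed. It was used to choose the genes, so nothing is read from its count: 8 of the 9 passed with lower levels, all except Col17a1 (adjusted p = 0.068), against 0.22% of all genes tested. The median log2 fold change of the 9 was -0.742, beside -0.0122 over all genes. The count depended on single libraries. No gene of the 9 passed without control_5NC 3, overexpression 1 or overexpression 3, 1 passed without control_5NC 2 and 2 without control_5NC 1, while all 9 passed without control_3NC 2. The directions held in each of these fits. The contrast of both modified groups with both control groups, also used in the choice, called 6 of the 9 lower (Marc2, Tuft1, Shisa3, Tmem202, Trappc12 and Col17a1) against 0.128% of all genes. That count was 0 without control_5NC 3, knockdown 2 or overexpression 1, 1 without knockdown 3, and 3 without control_5NC 2 or overexpression 3. Without control_3NC 2 it was 5, with Trappc12 at an adjusted p of 0.063.

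Knockdown against control_3NC asks what the inhibiting virus changed. With edgeR 0 of the 9 genes passed, against 0.0061% of all genes called lower, and 0 passed with DESeq2. At an unadjusted p under 0.05 there were 6 of the 9, against 1424 of all 16395 genes. Below 0 were 7 of the 9, beside 54.7% of all genes. The median of the 9 was -0.228, beside -0.0255 over all genes. For 6 of the 9 the 3 knockdown libraries lay below the 3 control_3NC libraries, as for 6.57% of all genes. These are the 6 called here in both modified groups against both control groups (Marc2, Tuft1, Shisa3, Tmem202, Trappc12 and Col17a1). That contrast holds the knockdown libraries and was used in the choice, so their direction is not independent of it. Which contrast chose which gene is not stated. The summed interferon genes were also high in control_3NC 2, at 511 CPM against 37.2 to 146 CPM in the other libraries. In this contrast the 11 tested genes of each list had medians of -0.928 and -2.57, and 0 passed with edgeR or DESeq2 (6 and 7 at an unadjusted p under 0.05). Without control_3NC 2 again 0 of the 9 genes passed, and the difference was -0.35 for Marc2 and -0.76 for Col17a1, close to the values with it.

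Sh2d7, Bcas1 and Arhgef39 passed in the overexpression contrast and not in that of both modified groups (adjusted p = 0.093, 0.082 and 0.11). Knockdown against control_3NC shares no library with the overexpression contrast. These 3 genes are set apart here by missing the threshold in a contrast that includes the knockdown and control_3NC libraries, so a knockdown difference near 0 is in part given by that choice and its values are a description. Sh2d7 was at 0.02 ± 0.17 (95% interval -0.34 to 0.39, edgeR adjusted p = 0.96). Bcas1 was at 0.08 ± 0.12 (-0.18 to 0.33, adjusted p = 0.82), and Arhgef39 at -0.09 ± 0.14 (-0.40 to 0.23, adjusted p = 0.83). In the overexpression contrast, which was used in the choice, the estimates were -1.09, -0.88 and -0.74. No conclusion is drawn from setting these beside the knockdown intervals. In knockdown against control_3NC the sign of Sh2d7 and Arhgef39 turned in some fits without 1 library. Without control_3NC 2 Sh2d7 was at 0.00, Bcas1 at 0.01 and Arhgef39 at -0.11.

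The difference between the overexpression and knockdown effects, each against its own control, uses the contrast that chose the genes and is a description. It was -1.11 ± 0.24 for Sh2d7 (edgeR adjusted p = 0.27), -0.96 ± 0.17 for Bcas1 (0.14) and -0.65 ± 0.20 for Arhgef39 (0.59). For Col17a1 it was -0.06 ± 0.26. With edgeR 0 of the 9 genes passed, against 0.0183% of all genes called in either direction. At an unadjusted p under 0.05 there were 6 of the 9, against 1104 of 16395 genes. With DESeq2 2 of the 9 passed, against 53 of all genes. Without control_3NC 2 again 0 of the 9 passed, and the values were -1.09, -0.89 and -0.63 for Sh2d7, Bcas1 and Arhgef39 and -0.10 for Col17a1.

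**Figure D2:**
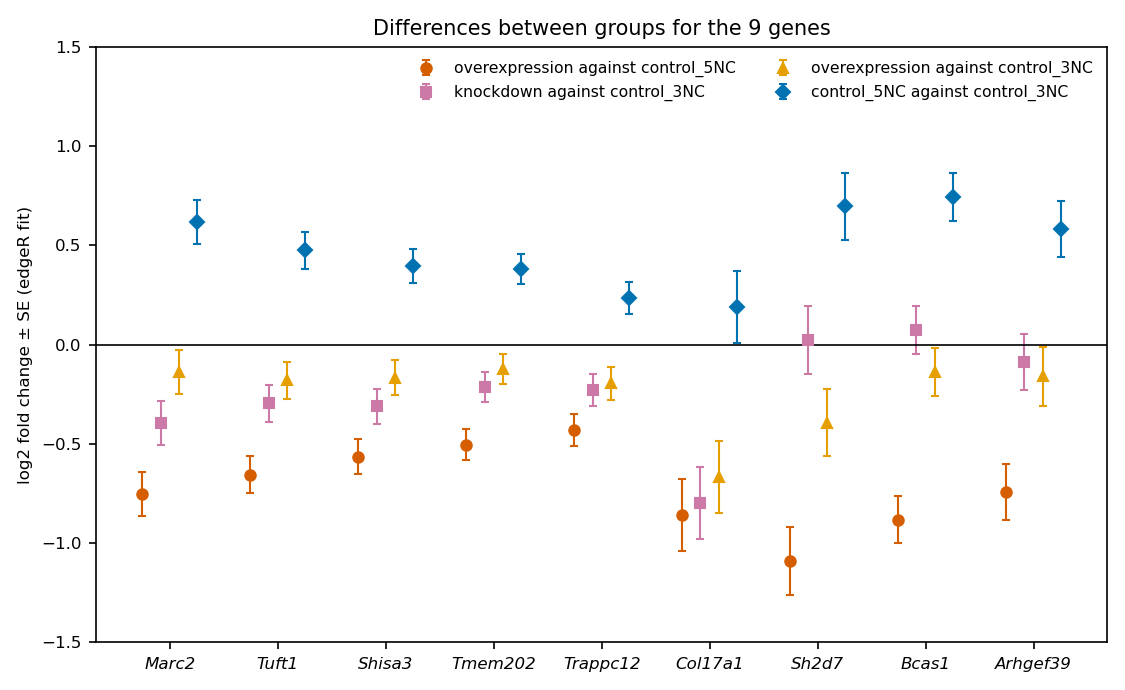
Log2 fold change ± SE (edgeR fit) of each of the 9 genes in overexpression against control_5NC, knockdown against control_3NC, overexpression against control_3NC and control_5NC against control_3NC, with a line at 0. In overexpression against control_5NC all 9 points are below 0, whereas in knockdown against control_3NC Sh2d7 (0.02) and Bcas1 (0.08) are not.

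The controls were compared with each other to show how far control_5NC itself was placed. All 9 genes were higher in control_5NC than in control_3NC by their estimate, with a median of 0.476 beside -0.0178 over all genes. Of all genes, 53.4% were below 0 in that contrast. Marc2 (0.62 ± 0.11, adjusted p = 0.04) and Bcas1 (0.75 ± 0.12, adjusted p = 0.037) passed the edgeR test, 2 of 9 against 0.0915% of all genes called higher. Without control_3NC 2 both still passed, at 0.66 and 0.68 (adjusted p = 0.042 each). None of the 9 passed without control_3NC 1, any of the 3 control_5NC libraries, knockdown 2, overexpression 1 or overexpression 3, and 1 passed without knockdown 3 or overexpression 2. This comparison shares control_5NC with the one that chose the genes and is given beside it, not in its support. On the log2 scale, the distance from control_5NC down to control_3NC was 84.6% of that from control_5NC down to overexpression for Bcas1 and 81.9% for Marc2. It was 78.4% for Arhgef39, 75.8% for Tmem202, 72.7% for Tuft1, 70.6% for Shisa3, 64.0% for Sh2d7 and 54.9% for Trappc12. For Col17a1 it was 22.1%.

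The controls were also exchanged, after the data were seen. Fewer of the 9 genes passed against control_3NC than against control_5NC, which is in part given by their choice on control_5NC. Against control_3NC, 0 of the 9 genes passed edgeR with lower levels in overexpression, and 0% of all genes were called lower. At an unadjusted p under 0.05 there were 3 of the 9, against 1097 of 16395 genes, and 0 of the 9 passed with DESeq2. The estimates ran from -0.12 for Tmem202 (edgeR adjusted p = 0.72) to -0.67 ± 0.18 for Col17a1 (edgeR adjusted p = 0.70). All 9 estimates were below 0, beside 54% of all genes. Without control_3NC 2 again 0 passed, and they ran from -0.09 for Marc2 to -0.63 for Col17a1. For Marc2, Tuft1, Tmem202, Trappc12, Col17a1 and Sh2d7 the 3 overexpression libraries lay below the 3 of control_3NC, as for 3.21% of all genes. Against control_5NC, 8 of the 9 genes were lower with knockdown, all except Sh2d7 (adjusted p = 0.073), against 0.64% of all genes. Marc2 was at -1.01 ± 0.11 (adjusted p = 0.0014) and Arhgef39 at -0.67 ± 0.14 (adjusted p = 0.049). That count fell to 4 when any 1 of the control_5NC or knockdown libraries was left out, and was 9 without control_3NC 2. These contrasts share control or modified libraries with those that chose the genes.

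Set directly against each other, the modified groups were not told apart for these genes. With edgeR 0 of the 9 passed in overexpression against knockdown (0% of all genes called lower), and 0 passed with DESeq2. At an unadjusted p under 0.05 there were 2 of the 9, against 343 of 16395 genes. The estimate was 0.26 ± 0.11 for Marc2 (95% interval 0.02 to 0.49, adjusted p = 1) and -0.42 ± 0.17 for Sh2d7 (-0.79 to -0.05, adjusted p = 1). Trappc12 was closest to 0, at 0.03 ± 0.082 (-0.14 to 0.21). These intervals do not show that the modified groups were alike.

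**Figure D3:**
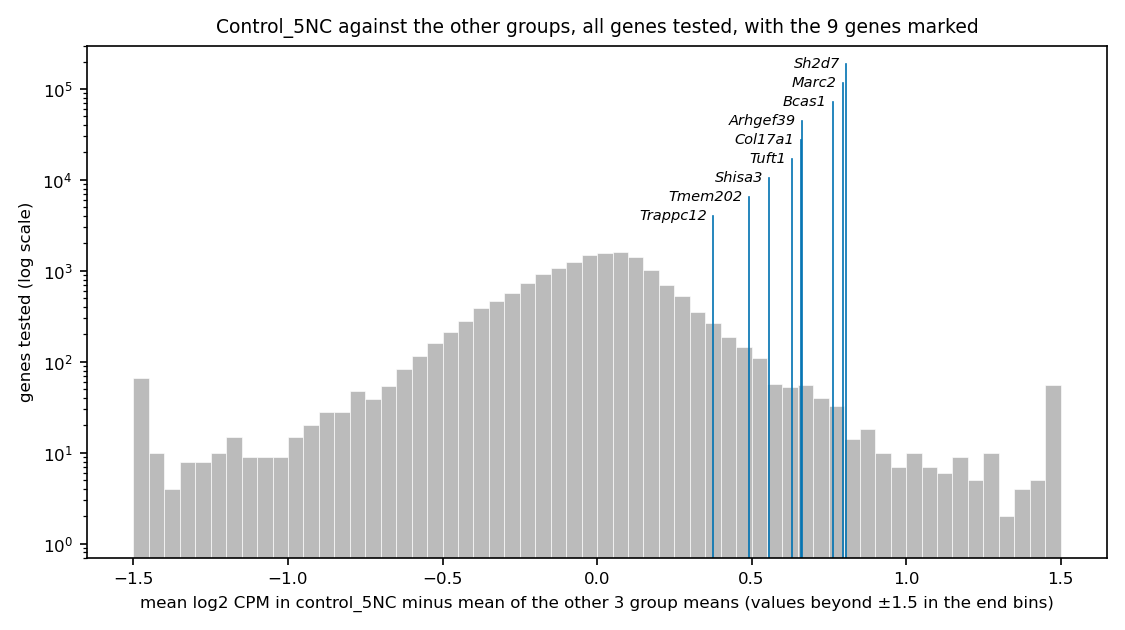
Mean log2 CPM in control_5NC minus the mean of the other 3 group means, for all 16395 genes tested (grey, counts on a log axis, values beyond 1.5 gathered in the end bins), with a line for each of the 9 genes. The lines run from 0.38 for Trappc12 to 0.81 for Sh2d7, on the right side of the distribution.

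Measured as control_5NC minus the mean of the other 3 groups, the 9 genes ranged from 0.38 (Trappc12) to 0.81 (Sh2d7) in log2 CPM, which are the 94.18 and 99.04 percentiles of all genes tested. Within the other 3 groups their means spanned 0.16 (Arhgef39) to 0.42 (Sh2d7), apart from Col17a1 with a span of 0.79, wider than its 0.66 above them. These percentiles describe genes chosen partly on control_5NC and are no test.

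Correlations among the 9 genes follow in part from their choice for a like group pattern and are a description. Over the 36 pairs of genes, Pearson's r of log2 CPM over 12 libraries ran from 0.546 to 0.958 with a median of 0.833. After the group means were subtracted it ran from -0.726 to 0.748 with a median of -0.0254. Over the 9 libraries without control_5NC the median was 0.391. The points share library depth and normalisation.

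Other genes with the most similar pattern over the 12 libraries, among 15371 with a mean of at least 1 CPM, are given by Pearson's r of log2 CPM, as a description. Arhgef39 was closest to Spdye4a (r = 0.981) and Cnst (0.966), and Trappc12 to Arhgef15 (0.97) and Rfx8 (0.95). Marc2 was closest to Cdk1, the kinase of entry into cell division, and to Jagn1 (0.969 each). Tmem202 was closest to Spag6l, a gene of the sperm axoneme (0.969), and Rrm1, a ribonucleotide reductase subunit (0.965). Tuft1 was closest to Nxpe3 (0.964) and Sec22a (0.96), Shisa3 to Lsg1 (0.962) and Zfp110 (0.956), Bcas1 to Msrb3 (0.964) and Zbtb5 (0.95), and Sh2d7 to Ankrd27 and Cep250 (0.952 each). Col17a1 had a lower likeness to its nearest genes, Rplp0 (0.938), a ribosomal protein gene, and Gfi1 (0.909).

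Partner and family genes of the 9, from lists of pathway and family membership, did not pass the test. In the 7 such lists given here with tested genes, 0 genes passed with edgeR or with DESeq2 in overexpression against control_5NC, in knockdown against control_3NC or between the controls. Of all 16395 genes, 2506, 1424 and 2111 had an unadjusted p under 0.05 in these contrasts. Of 10 tested molybdenum cofactor enzymes and partners it was 0, 2 and 1. Their medians were -0.019, -0.0457 and -0.109, whereas Marc2 was at -0.75, -0.40 and 0.62. Cyb5b, which passes electrons to Marc2, was at 0.03 ± 0.11 and Cyb5r3, which reduces cytochrome b5, at 0.38 ± 0.28 in the overexpression contrast. Marc1, the other mARC gene, was below the filter. Of 13 tested TRAPP subunits 0 had an unadjusted p under 0.05 in any of the 3 contrasts, with a median of -0.00348 in the overexpression contrast. The subunits Trappc9 (-0.01 ± 0.14) and Trappc8 (-0.08 ± 0.094) were close to 0, unlike Trappc12.

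Families of the membrane genes were near the median of all genes in overexpression against control_5NC. Of 8 hemidesmosome genes 0 had an unadjusted p under 0.05, with a median of 0.00643, and the plakin genes Plec (0.17 ± 0.16) and Dst (-0.09 ± 0.076) were near 0. Of 17 tested Shisa family genes and frizzled and FGF receptors it was 0, with a median of -0.0103. The Wnt receptor gene Fzd3 was at -0.13 ± 0.12 and Shisa5 at 0.05 ± 0.62.

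The relatives of Sh2d7 and the genes of tissues in which Sh2d7, Bcas1 and Tuft1 are known were listed too. Of 6 tested Sh2d family genes 0 had an unadjusted p under 0.05 in overexpression against control_5NC, with Sh2d6 at -0.11 ± 0.18 and Sh2d4a at 0.09 ± 0.19. Of 10 tested tuft cell genes, apart from Sh2d7, it was 1. Their median was 0.0443, and their summed level was 40.5 to 51.0 CPM in control_5NC and 40.4 to 51.9 CPM with overexpression, so the groups overlapped. Of these 10 genes, 5 were below 0, and 0 passed with edgeR or DESeq2. Pou2f3, the master regulator of tuft cells, was at 1.21 ± 0.30 (edgeR adjusted p = 0.093). It was named after its value was seen and does not stand for the list. Of 6 tested myelin genes 1 had an unadjusted p under 0.05, with a median of -0.0237. The myelin glycoprotein gene Mag was at -0.34 ± 0.15. None of the enamel genes listed beside Tuft1 passed the filter on low counts.

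Among 5 lists of germ cell stages, the pachytene and diplotene list was the 1 in which control_5NC stood apart from all other libraries. The lists were chosen with earlier results of these data known, so this is a description. The 14 pachytene and diplotene genes had a mean log2 level, relative to their mean over all libraries, of 0.125, 0.118 and 0.135 in control_5NC. In the other 9 libraries it ran from -0.154 to 0.06, so control_5NC did not overlap with them. The 16 round spermatid genes went the other way, at -0.159, -0.203 and -0.176 in control_5NC. Control_3NC 2 was at -0.261 and the other 8 libraries lay between -0.044 and 0.218. In the spermatogonia, meiotic prophase and elongating spermatid lists control_5NC overlapped the other groups.

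**Figure D4:**
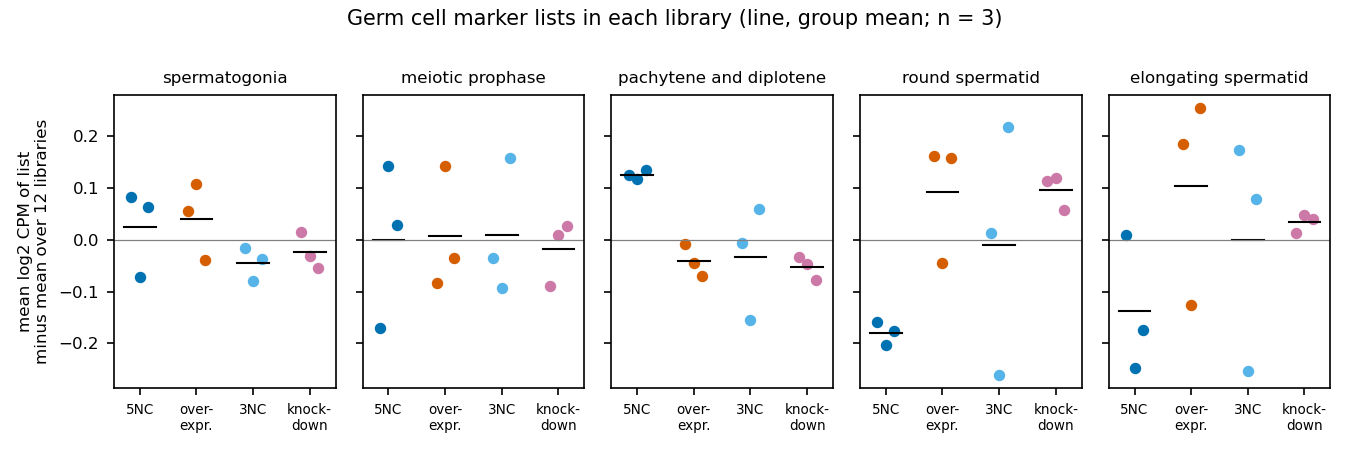
Mean log2 CPM of the genes of each germ cell stage list in the 12 libraries, relative to the mean of that list over all libraries, by group. In pachytene and diplotene genes the 3 control_5NC libraries (0.118 to 0.135) are above the other 9, and in round spermatid genes they (-0.203 to -0.159) are below all others but control_3NC 2.

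In overexpression against control_5NC the pachytene and diplotene genes had a median of -0.167, with 10 of 14 below 0 and 1 passing with edgeR, Cdk1 (-0.44 ± 0.08, adjusted p = 0.035). With DESeq2 5 of the 14 passed (Ccna1, Ovol2, Nek2, Aurka and Cdk1). The 16 round spermatid genes had a median of 0.331 with 3 of 16 below 0 and the 14 elongating spermatid genes a median of 0.258. In these 2 lists 0 passed with edgeR, 10 and 6 had an unadjusted p under 0.05, and 8 and 4 passed with DESeq2. Of all 16395 genes tested, 2506 had an unadjusted p under 0.05 in this contrast, 52% were below 0, and 742 passed with DESeq2. Among 17 meiotic prophase genes the median was 0.0303 and 1 passed with edgeR, Spo11, which makes the meiotic DNA breaks (-0.91 ± 0.10, adjusted p = 0.0033). With DESeq2 2 passed, Syce3 and Spo11. By summed CPM the pachytene and diplotene list overlapped between the groups, at 7083 to 7376 in control_5NC and 7206 to 7448 with overexpression, and no listed gene was at 0 in all libraries of a group. The part of germ cell makeup in the levels of the 9 genes was not tested. Of the somatic lists, Sertoli cell genes had a median of 0.00401 in that contrast, with Cst9 the 1 of 15 to pass.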

How the data were processed

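RNA from 12 testis libraries was analysed, 3 in each of 4 groups, grouped by their titles. The authors deposited, for each gene and library, an estimated count and a signal whose column names state no unit. That signal was taken here to be scaled by length. Per the submitters' processing notes the reference was mm10. The aligner, counting program, annotation, filters and strand setting were not given in the sources used here. Left unused were 18 columns of the table that belong to 9 other samples.

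The counts were rounded and fitted in R 4.3.3 with edgeR 4.0.16 (filterByExpr with a minimum count of 10, TMM scaling, robust quasi-likelihood, 4 group means over all 12 libraries). Benjamini-Hochberg adjustment ran over 16395 genes, and 0.05 was the threshold. CPM are TMM-scaled, and log2 CPM used a prior count of 2. DESeq2 1.42.0, RLE scaling, no filter, only the compared groups, a replicate block and leaving out each library were alternatives. The code was tested on simulated data. Within groups, the 12 library pairs differed by 3.08 to 39.5 chi-square per degree of freedom, above counting noise, so no pair was treated as copies.

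The 9 genes and all lists were chosen with earlier results of these data known. Named are all 9 genes, each listed gene that passed, otherwise the 2 of a list with the highest mean CPM (1 gene and 1 list are not reported here), and for each of the 9 the 2 genes with the highest r over the libraries. Overexpression against control_3NC and knockdown against control_5NC, and the alternatives for the difference between the effects, were added after the data were seen. Promoters come from RefSeq on GRCm38.p6 and positions from GENCODE M21 on GRCm38, the assembly behind mm10.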

Additional observations from a re-analysis of the deposited data

How the results depend on the processing

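Among the 9 genes, every log2 fold change in overexpression against control_5NC, knockdown against control_5NC, both modified against both control groups, control_5NC against control_3NC and overexpression against control_3NC kept its direction in every alternative run. The number of the 9 called moved with single libraries: 0 to 9 in overexpression against control_5NC, 0 to 7 in both against both, 4 to 9 in knockdown against control_5NC, 0 to 2 between the controls and 0 to 1 for the difference between the effects. Between the controls it was 0 in the fit of only those groups and 7 with DESeq2, and for the difference between the effects 2 with DESeq2. The numbers of all genes called when 1 library was left out were 5 to 521 in overexpression against control_5NC (78 with all), 1 to 9 in knockdown against control_3NC (3), 7 to 126 between the controls (40), 6 to 300 in both against both (43), 0 to 2 in overexpression against knockdown (0), 1 to 5 in overexpression against control_3NC (1), 17 to 671 in knockdown against control_5NC (202) and 3 to 12 for the difference between the effects (3). With DESeq2 these were 742, 23, 305, 675, 12, 14, 837 and 53. In fits of only the compared groups, knockdown against control_3NC gave 0, the controls 9, overexpression against control_3NC 0 and knockdown against control_5NC 1239, and without the filter the last gave 113. With a replicate block, overexpression against control_5NC gave 269, both against both 386, knockdown against control_5NC 601 and the difference between the effects 6. Without 1 library the sign turned for Sh2d7 (-0.05 to 0.12) and Arhgef39 (-0.22 to 0.02) in knockdown against control_3NC, for Trappc12 (-0.01 to 0.07), Col17a1 (-0.01 to 0.27) and Arhgef39 (-0.19 to 0.06) in overexpression against knockdown, and for Col17a1 (-0.20 to 0.08) in the difference between the effects. The causes were not tested. Same-numbered libraries deviated together with r of -0.125 to 0.313, so the numbers are not taken as pairs.

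Limits: each group has 3 libraries, and Col17a1, Sh2d7 and Arhgef39 rest on few counts, down to 42 in a library. The genes were chosen on overexpression against control_5NC or on both modified groups against both control groups. Libraries of every group thus took part in the choice, so values of these genes in any contrast, knockdown against control_3NC included, are descriptions.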
